A study of Mus musculus with 2 samples.

Results

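Acute phase and plasma protein genes encode secreted proteins of blood plasma, and 10 of them were followed here in cultured mouse ovary: Ahsg, Lbp, Saa3, Lcn2, Hp, Orm1, Cp, Fgg, Serpina3n and Itih4. They are 10 of the 20658 genes that the array probes could be named for, and each is represented by every probe that carries its name or its RefSeq transcript, 11 probes in all because Itih4 has 2. The genes were chosen with their values on these arrays known, led by Ahsg, so that their own levels and ratios are given as a description and support no further statement. The members were Ahsg (NM_013465), Lbp (NM_008489), Saa3 (NM_011315), Lcn2 (NM_008491), Hp (NM_017370), Orm1 (NM_008768), Cp (NM_007752), Fgg (NM_133862), Serpina3n (NM_009252) and Itih4 (NM_018746).

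The study asked how tachykinin signalling acts on the ovary, and the arrays set ovaries with stimulated tachykinin receptors (TKRs) against ovaries with blocked TKRs. Ovaries of 2-week-old mice were cut lengthwise, and the pieces were cultured for 3 days either with TKR agonists (the substance P analogue [Sar9, Met(O2)11]-SP for TACR1, GR-64349 for TACR2 and senktide, a succinylated analogue of a substance P fragment, for TACR3) or with TKR antagonists (a non-peptide antagonist for TACR1, GR-94800 for TACR2 and SB218795 for TACR3). Each condition has 1 single-colour array, on which the whole RNA of the tissue was labelled with Cy3 and hybridised to oligonucleotide probes. The paper's results describe the antagonist treatment of this screen as all of the antagonists, whereas its supplement lists the ligands of the array cultures as alternatives. Whether the agonists were given together is not stated for the arrays. No genotype or strain is given for these mice, and the number of ovaries behind each RNA is not given either. Ovaries cultured without ligand were not analysed here, so the ratios below do not say which condition departs from an untreated ovary. With 1 array for each condition there is no replicate, no test was made, and the errors given are those of the spots and not of the ovaries.

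In an acute phase response, cytokines such as interleukin-6 and interleukin-1 reach the liver, where STAT3, C/EBP and NF-kB factors raise the transcription of a group of secreted proteins. These proteins bind bacterial products, haem, iron or copper, inhibit proteases or form the fibrin clot, and several of them are also made outside the liver by epithelia, macrophages, fat and stroma. Ahsg, which encodes fetuin-A, belongs to the plasma proteins whose hepatic synthesis commonly falls in inflammation, whereas Saa3, Lbp, Lcn2, Hp, Orm1, Cp, Fgg, Serpina3n and Itih4 are known as positive acute phase genes.

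Of the 10 genes, 9 had a probe well above background on both arrays by the criterion of the image analysis software. Among these 9, 7 had a signal at least 2-fold higher with the agonists (Ahsg, Saa3, Serpina3n, Lbp, Cp, Lcn2 and Hp), and 0 were lower by this factor. Itih4 and Fgg stayed within 2-fold, and Orm1 was not well above background on either array. Of all 15258 genes that passed this criterion on both arrays, 4.01% were past 2-fold in favour of the agonists and 0.577% in favour of the antagonists (2.69% and 0.705% of the 33073 such probes), and nothing is read from the contrast because the genes were chosen from this same ratio. The median log2 ratio, the scaled agonist value minus the scaled antagonist value, was 1.45 over the 9 genes (range -0.83 to 3.16) and -0.10 over the 15258 genes (SD 0.48), of which 37.7% were above 0. The arrays measure whole tissue, where fewer cells of a type and less RNA per cell cannot be told apart.

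Promoter sequence is printed for the 3 members that were at least 4-fold higher with the agonists (Ahsg, Saa3 and Serpina3n) and for Fgg, the member with the lowest ratio among those well above background on both arrays. The 250 bases before each gene start were taken from RefSeq on build GRCm38.p6, 5′ to 3′ on the strand of the gene: chr16:22891765-22892014 on the plus strand for Ahsg, chr7:46715677-46715926 on the minus strand for Saa3, chr12:104406458-104406707 on the plus strand for Serpina3n and chr3:83007474-83007723 on the plus strand for Fgg. Capitals mark matches to a C/EBP element, spelled TTNNGNAA and searched on both strands, or to a STAT element, spelled TTCNNNGAA and searched likewise.
Ahsg: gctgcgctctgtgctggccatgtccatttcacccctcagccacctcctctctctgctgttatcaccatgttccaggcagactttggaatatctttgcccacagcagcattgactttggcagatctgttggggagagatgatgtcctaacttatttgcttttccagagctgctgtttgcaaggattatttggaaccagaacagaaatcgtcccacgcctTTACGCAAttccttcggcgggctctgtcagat
Saa3: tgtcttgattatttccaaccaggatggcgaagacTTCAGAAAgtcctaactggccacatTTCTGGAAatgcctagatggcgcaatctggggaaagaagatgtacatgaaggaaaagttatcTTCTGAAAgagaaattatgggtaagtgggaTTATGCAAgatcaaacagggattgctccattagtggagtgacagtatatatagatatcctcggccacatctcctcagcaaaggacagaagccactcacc
Serpina3n: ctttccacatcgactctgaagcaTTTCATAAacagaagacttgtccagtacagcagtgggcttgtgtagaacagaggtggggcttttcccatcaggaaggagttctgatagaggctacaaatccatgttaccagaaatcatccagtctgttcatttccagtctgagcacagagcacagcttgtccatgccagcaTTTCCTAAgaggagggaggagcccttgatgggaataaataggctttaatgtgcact
Fgg: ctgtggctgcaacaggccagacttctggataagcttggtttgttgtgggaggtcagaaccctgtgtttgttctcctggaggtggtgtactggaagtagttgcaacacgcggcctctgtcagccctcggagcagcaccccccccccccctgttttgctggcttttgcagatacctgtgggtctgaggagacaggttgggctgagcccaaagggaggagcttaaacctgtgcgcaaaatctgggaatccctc

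A promoter sequence was matched for 7 of the 10 members, and not for Lbp, Hp and Orm1. The C/EBP letters occurred in 5 of these 7 members and in 36.8% of all 32851 promoter windows of the same length. Members are counted here by gene and the shares by window, and the 7 members have 8 windows because Cp has more than 1. Saa3 held 4 C/EBP matches and Serpina3n 2. Ahsg held 1, from base -32 to base -25, where -1 is the base before the gene start. Lcn2 held 1 match, Cp held 1 in each of its windows, and Fgg and Itih4 held 0. The STAT letters were found in Itih4 alone among the 7, as TTCCGAGAA from base -51 to base -43, and in 7.02% of all windows. No window held both a STAT and a C/EBP match, so an overlap of the 2 could not occur. An NF-kB element was found in 0 of the 7 members and in 7.25% of all windows, and a TATA box (TATAAA on the strand of the gene) in Cp and in 7.59%. A match is a description of letters in a window and not an occupied site.

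**Figure D1:**
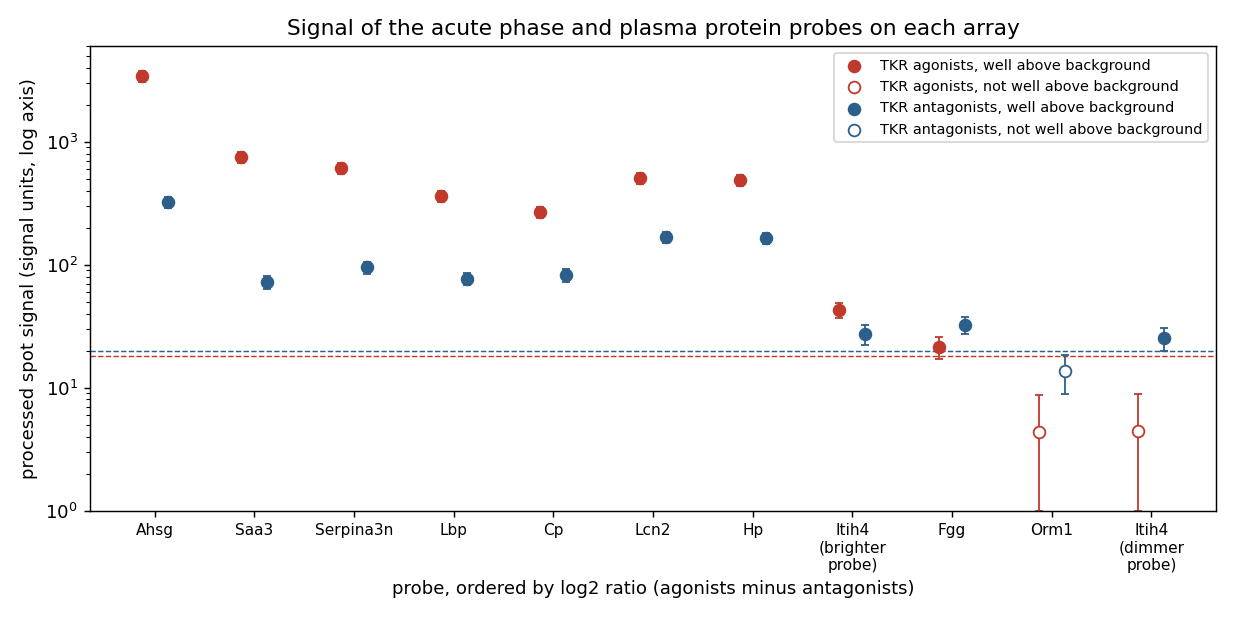
Processed spot signal of each of the 11 probes on a log axis in signal units, red for the array with TKR agonists and blue for the array with TKR antagonists, with bars for the error the image software gives for the spot, cut at the lower axis limit where they reach below it. Filled points are well above background and open points are not, and dashed lines mark the lowest signal well above background on each array (18.1 and 19.9). The agonist point lies above the antagonist point for Ahsg, Saa3, Serpina3n, Lbp, Cp, Lcn2, Hp and the brighter Itih4 probe, and below it for Fgg, Orm1 and the dimmer Itih4 probe.

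Among the transport and binding proteins the largest ratio was that of Ahsg. Fetuin-A is a plasma glycoprotein that keeps calcium phosphate in solution and inhibits the insulin receptor. Its probe read 3422 ± 342 signal units (software error, 1 spot) with the agonists against 324 ± 32.7 with the antagonists. After scaling, this was 8.94-fold higher with the agonists, a log2 ratio of 3.16 with a spot error of 0.20. A ratio at least as large was found for 10 of the 15258 genes, Ahsg included.

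Cp, Hp and Lcn2 handle metals and haemoglobin. Ceruloplasmin (Cp) carries copper and oxidises iron, and its probe read 266 ± 27.0 with the agonists against 82.3 ± 9.47 with the antagonists, a log2 ratio of 1.45 ± 0.22. Haptoglobin (Hp) binds free haemoglobin, and its probe read 486 ± 48.7 against 165 ± 17.0, a log2 ratio of 1.32 ± 0.21. Lipocalin-2 (Lcn2), which takes iron-loaded siderophores away from bacteria, read 503 ± 50.5 against 167 ± 17.3, a log2 ratio of 1.35 ± 0.21. The fold changes were 2.73 for Cp, 2.49 for Hp and 2.55 for Lcn2, and these 3 ratios differed from each other by less than the spot error of any of them. A ratio at least as large was found for 270 genes (1.77%) in the case of Cp, 325 (2.13%) for Lcn2 and 349 (2.29%) for Hp.

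Orm1 encodes orosomucoid, an abundant plasma glycoprotein that binds basic drugs and lipids. Its probe read 4.37 ± 4.39 with the agonists, where the raw spot brightness of 41 did not exceed the local background of 42. With the antagonists it read 13.7 ± 4.78, from a raw brightness of 57.5 over a background of 41. Both readings were short of the well-above-background mark, and no fold is given.

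Lbp and Saa3 belong to the recognition of bacterial products. Lipopolysaccharide-binding protein (Lbp) hands bacterial endotoxin to CD14. Its probe read 361 ± 36.3 with the agonists against 76.4 ± 8.74 with the antagonists, 3.99-fold apart (log2 ratio 2.00 ± 0.22). Serum amyloid A3 (Saa3) is the serum amyloid form that in mice is made largely outside the liver. Its probe read 744 ± 74.5 against 72.2 ± 8.55, 8.72-fold apart (log2 ratio 3.12 ± 0.22). The ratios of Saa3 and Ahsg, the largest among the 9, differed by less than the spot error of either, and a ratio at least that of Saa3 was found for 12 of the 15258 genes. Under the normexp background correction described below, Saa3 had 2.22 and Ahsg 2.94, further apart than these errors.

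The protease inhibitors gave unlike values. Serpina3n, a secreted inhibitor of granzyme B and other serine proteases, read 611 ± 61.2 with the agonists against 95 ± 10.5 with the antagonists, 5.44-fold apart (log2 ratio 2.44 ± 0.21). Itih4 encodes a heavy chain of the inter-alpha-trypsin inhibitor family, and its probes disagreed. The brighter read 42.7 ± 6.0 against 27.4 ± 5.17, a log2 ratio of 0.40 that was close to its spot error of 0.34. The dimmer read 4.42 ± 4.45 with the agonists, not well above background, and 25.2 ± 5.24 with the antagonists, which was at least 1.64-fold higher with the antagonists. Such a lower bound sets the bright value against the lowest signal that was well above background on the array where the probe was dim, or against the dim value itself where that is higher. Both Itih4 probes carry the same RefSeq transcript, and no direction is given for Itih4.

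Fgg encodes the gamma chain of fibrinogen, the protein that forms the clot. Its probe read 21.4 ± 4.32 with the agonists against 32.2 ± 5.18 with the antagonists, 1.78-fold lower with the agonists, with a log2 ratio of -0.83 ± 0.37. Both values lie just above the lowest signals well above background. Some probes are carried at 10 spots each, and those with all 10 spots well above background on both arrays were read. Among those of like signal (20 to 50 units), the SD of the log2 ratio between spots had a median of 0.34. It reached 0.49 over 9 such probes, against 0.07 and 0.16 over 92 probes of 300 to 1500 units. Probes with any dimmer spot were left out, so the spread of dim probes may be larger.

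**Figure D2:**
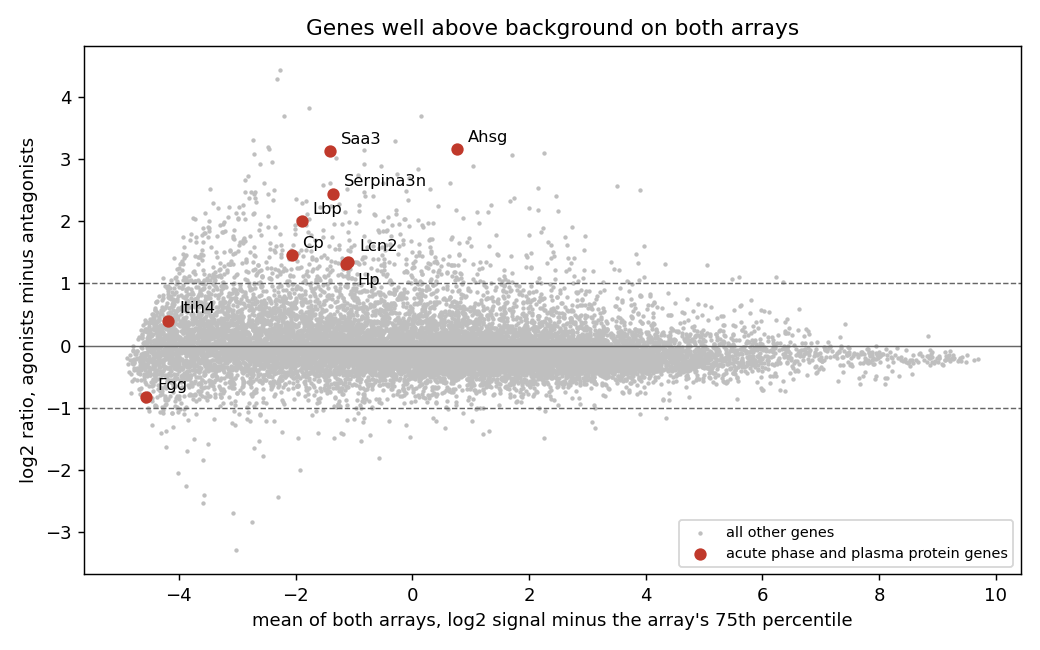
Log2 ratio, agonists minus antagonists, against the mean of both arrays on the log2 scale relative to the 75th percentile of each array, for the 15258 genes well above background on both arrays, with 9 of the acute phase and plasma protein genes in red and the others in grey. Dashed lines mark 2-fold. Ahsg and Saa3 lie above 3, and Fgg and Itih4 lie at the dim end within the dashed lines.

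Dim genes spread more widely than bright ones in that plot, so the counts were also taken over genes of like signal. Within the range of mean signal covered by the 7 genes past 2-fold, 5.38% of 5033 genes were past 2-fold in favour of the agonists and 0.517% in favour of the antagonists. Each of the 11 probes has 1 spot on each array, none of them saturated or marked as an outlier.

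A wider list of 44 acute phase and plasma protein genes, other than the 10, was read on the same arrays. Of these, 42 had a named probe and 25 were well above background on both arrays. Among the 25, 13 were past 2-fold in favour of the agonists (52.0%) and 0 in favour of the antagonists, 23 lay above 0 and 2 below, and the median log2 ratio was 1.04 (range -0.18 to 2.48). Another 5 were well above background with the agonists only, and the median was 0.89 with these at their bounds. To set beside these counts, 4.01% of all 15258 genes were past 2-fold in favour of the agonists and 0.577% in favour of the antagonists. Of the same 15258 genes, 37.7% lay above 0. The wider list was written with earlier results of these data known, and its counts are a description.

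Several of the genes past 2-fold belong to the serpin family, as Serpina3n does. Serpina3f and Serpina3c, relatives of Serpina3n, had log2 ratios of 2.48 (1470 against 223 signal units) and 2.29 (139 against 24.0). Serpina1a, an alpha-1-antitrypsin gene, had 1.86 (154 against 36.0), and a further probe of it was well above background with the agonists only. Serpinf1, which encodes the antiangiogenic protein PEDF, had 1.54 (8789 against 2551). Serping1, the inhibitor of the first complement component, had 1.51 (6074 against 1802). Further probes of Serpina3f, Serpinf1 and Serping1 gave 2.55, 1.72 and 1.40. Serpinf2, which encodes alpha-2-antiplasmin, was well above background with the agonists only and at least 6.80-fold higher there. Other serpins of the list stayed within 2-fold: Serpina3m had 0.27 (31.7 against 22.2), Serpinc1 0.13 (1555 against 1205) and Serpina10 -0.18. Serpina3n, Serpina3f, Serpina3c and Serpina3m, like Saa3 and Saa1, are close relatives in sequence, and the share of each signal that came from a relative was not tested because probe sequences were not used here.

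Carriers, inhibitors of other kinds and a leucine-rich glycoprotein were also past 2-fold. Fetub, the fetuin gene related to Ahsg, had a log2 ratio of 2.18 (2422 against 451 signal units), and Trf, which encodes the iron carrier transferrin, had 1.83 (5871 against 1400), with 1.92 at another probe. Lrg1, the leucine-rich alpha-2-glycoprotein, had 1.86 (207 against 48.3). Itih3 and Itih2, relatives of Itih4, had 1.76 (180 against 44.8) and 1.04 (66.0 against 27.1). Mug1, a broad protease inhibitor of the alpha-2-macroglobulin kind, had 1.42 (232 against 73.1), and Kng1, the precursor of bradykinin, had 1.12 (95.1 against 36.9). At the other end were Hpx, the haem carrier hemopexin (-0.15), and Serpina10, an inhibitor of activated coagulation factor X (-0.18). The 12 genes well above background on neither array included classical liver products, among them the pentraxins Crp and Apcs, Orm2, Orm3, Fgb, Hamp, Plg, Ambp and Saa2.

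**Figure D3:**
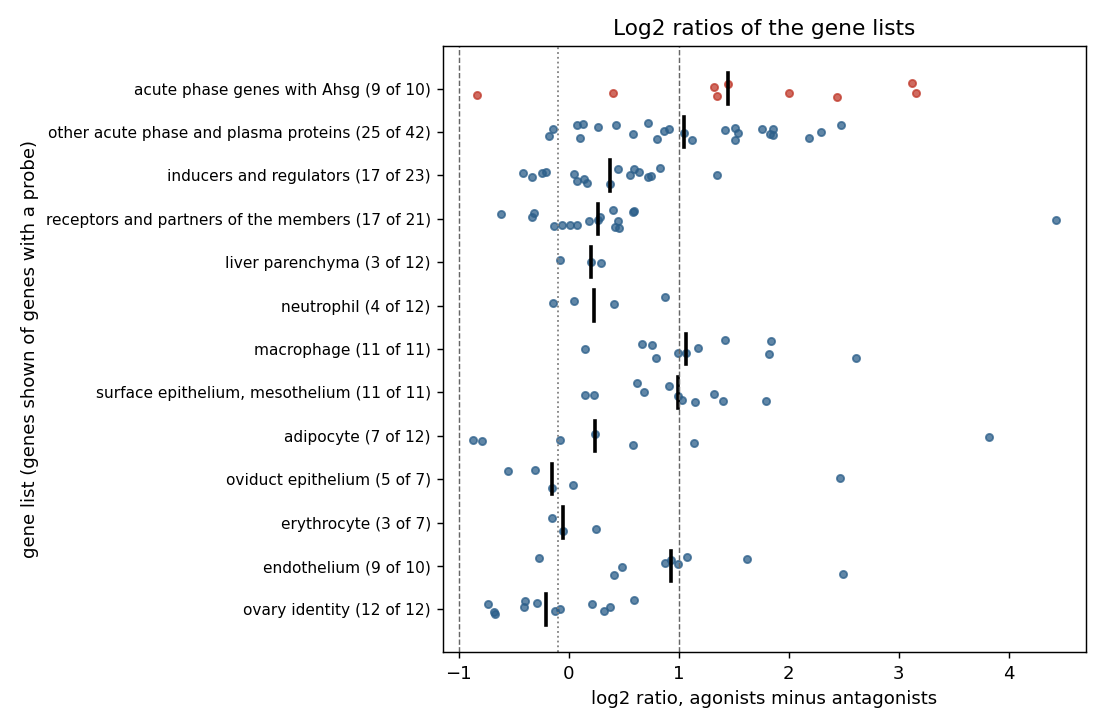
Log2 ratio, agonists minus antagonists, of each gene well above background on both arrays in 13 groups of genes, with a black bar at the median of each group, dashed lines at 2-fold and a dotted line at the median of all 15258 genes (-0.10). The 9 acute phase genes with Ahsg are in red. The medians of the other acute phase and plasma proteins (1.04), macrophage markers (1.07), surface epithelium markers (0.99) and endothelium markers (0.93) lie to the right of the remaining lists, which range from -0.21 to 0.37.

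Known inducers and regulators of the acute phase response were read from a list of 23 genes. Of these, 17 were well above background on both arrays, 1 was past 2-fold in favour of the agonists and 0 in favour of the antagonists, and the median log2 ratio was 0.37. The share past 2-fold in favour of the agonists was 5.88%, near the 4.01% of all 15258 genes. The gene past 2-fold was Cebpd, a C/EBP transcription factor that is itself induced in the acute phase, with 11407 against 3793 signal units (log2 ratio 1.35). Il1r1, the signalling receptor for interleukin-1, had 0.83 (1000.1 against 477), and Socs3, a feedback inhibitor of the STAT3 pathway, had 0.75 (3679 against 1854). Among the cytokine genes of the list, Lif had -0.42 (2303 against 2603) and Il11 had 0.72 (148 against 76.0), Osm was well above background with the agonists only and at least 1.43-fold higher there, and Il6, Il1a, Il1b and Tnf were so on neither array. The receptor antagonist gene Il1rn was well above background on neither array either. These counts take the brightest probe of each gene, which gave -0.33 for the receptor gene Lifr. Its other probes gave -0.58 and -1.12, the latter past 2-fold in favour of the antagonists. Other probes gave 0.73 for Stat3 and 0.23 for Nfkb1, against 0.45 and 0.07 at the brightest.

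Receptors and partners of the 10 proteins were read likewise. Of 21 genes, 17 were well above background on both arrays, 1 was past 2-fold in favour of the agonists and 0 in the other direction, with a median log2 ratio of 0.27. This share of 5.88% was likewise near the 4.01% of all 15258 genes. F13a1, the coagulation factor that cross-links fibrin, read 647 against 25.4, a log2 ratio of 4.43 with a spot error of 0.31. The antagonist reading lay close to the lowest signal well above background on that array (19.9). Lrp2, the endocytic receptor megalin, was well above background with the agonists only and at least 11.3-fold higher there. Slc22a17, a receptor for lipocalin-2, had -0.62 (4164 against 5397). Tlr4, the endotoxin receptor to which Lbp and CD14 deliver their ligand, had 0.59 (267 against 150.1), and Cd14 had 0.27. The counts of this list also take the brightest probe of each gene, which gave 0.45 for Insr, the insulin receptor gene. Its other probes gave 0.45 and 1.03, the latter past 2-fold in favour of the agonists.

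The genes next to each member on its chromosome, 3 protein-coding genes on each side by the RefSeq order on GRCm38.p6, were read to see whether the ratios extended over the region. Of 60 such neighbours, 38 passed the background criterion on both arrays, and these had a median log2 ratio of -0.03, 18 above 0 and 20 below. At least 2-fold higher were 2 of the 38, Fetub beside Ahsg and Itih3 beside Itih4, each a relative of its member and already counted above, and 0 were at least 2-fold lower. Over all 15258 genes the median was -0.10, and 37.7% lay above 0. Past 2-fold were 4.01% of them in favour of the agonists and 0.577% in favour of the antagonists. Whether the neighbours departed from these shares was not tested. On the side of Ahsg away from Fetub, Dnajb11 had -0.24 and Tbccd1 -0.14. Hrg, the histidine-rich glycoprotein gene next after Fetub, had 0.07. Next to Saa3, Saal1 and Sergef both had -0.48, whereas Saa1 had 0.91. Fga, the fibrinogen alpha chain gene next to Fgg, had 0.86 (125 against 58.0) and so lay on the other side of 0 from Fgg, while Fgb was well above background on neither array.

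**Figure D4:**
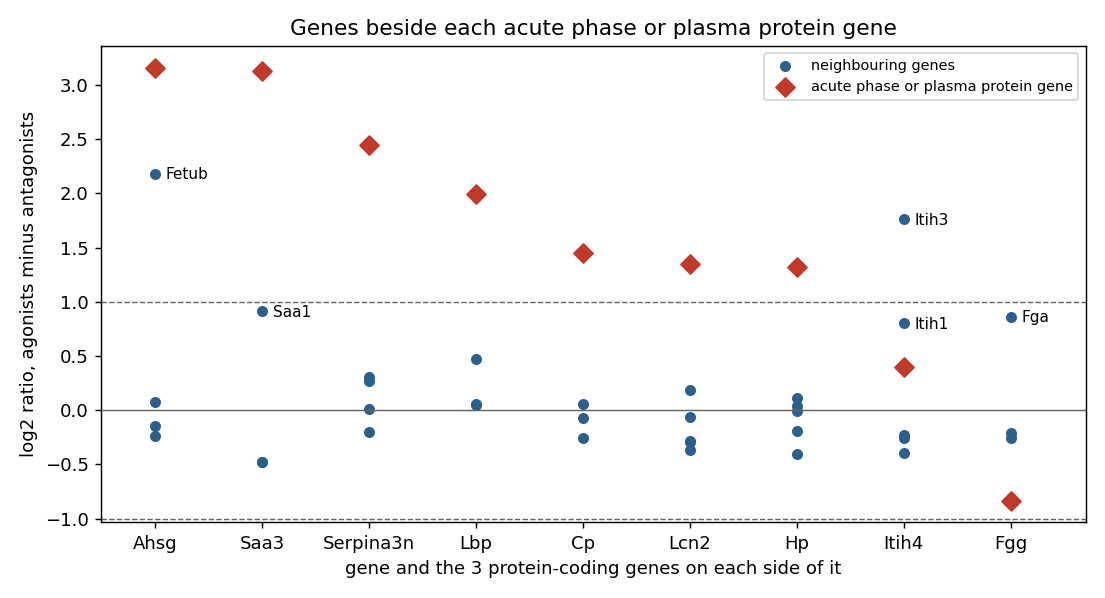
Log2 ratio, agonists minus antagonists, of 9 acute phase or plasma protein genes (red diamonds) and of those among the 3 protein-coding genes on each side that were well above background on both arrays (blue points), with dashed lines at 2-fold. The blue points lie between -0.48 and 2.18, and Fetub and Itih3 are the ones above the upper dashed line.

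Because several cell types can make these proteins, markers of each were set beside the result. To set beside the counts of each marker list, 4.01% of all 15258 genes were past 2-fold in favour of the agonists and 0.577% in favour of the antagonists. The 12 genes of ovary identity all passed the criterion on both arrays, none of them past 2-fold, with a median log2 ratio of -0.21. Their first listed members were Amh (-0.67), Amhr2 (0.38) and Inha (-0.68), and their range ran from -0.73 for Fshr to 0.59 for Figla. Of 12 liver parenchyma markers with a probe, 8 were well above background on neither array, albumin (Alb) among them, and Hnf4a was so with the agonists only. The 3 seen on both arrays had a median of 0.21, from -0.08 for Cyp2e1 to 0.29 for Tat. The summed signal of the liver list was 636 under agonists and 457 under antagonists, a ratio of 1.18 after scaling, and most of it came from Tat (413 and 285).

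Markers of macrophages, surface epithelium and endothelium had medians near 2-fold, with single genes on either side of it. Over all 15258 genes, 4.01% were past 2-fold in favour of the agonists and 37.7% lay above 0. All 11 macrophage markers with a probe lay above 0, 6 of them past 2-fold, with a median of 1.07 and summed signals of 13778 and 7134. They ran from 0.15 for Csf1r to 2.61 for Cx3cr1, with 1.42 for Adgre1, a macrophage surface receptor. These counts take the brightest probe of each gene, and other probes gave 0.72 for Adgre1, under 2-fold, and 0.04 and -0.09 for Csf1r, while another of Cx3cr1 was well above background with the agonists only. All 11 markers of ovarian surface epithelium and mesothelium lay above 0, 5 past 2-fold, with a median of 0.99 and summed signals of 47682 and 26061. They ran from 0.14 for Cdh1 to 1.79 for Lrrn4, and the keratin genes Krt7, Krt8 and Krt18 had 1.15, 0.91 and 1.03. Of 10 endothelial markers, 9 were seen on both arrays, 3 past 2-fold, with a median of 0.93 and summed signals of 51893 and 35284. They ran from -0.27 for Kdr, with 0.38 at another probe, to 2.49 for Vwf, with 0.48 for Pecam1 and 0.88 for Cdh5. Tek was well above background with the agonists only and at least 4.10-fold higher there, and the endothelial median was 0.96 with Tek at its bound. The part of these cells in the ratios of the acute phase genes was not tested.

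Neutrophils, fat, oviduct and blood gave smaller medians. Of 12 neutrophil markers with a probe, 4 were seen on both arrays, with a median of 0.23 and 0 past 2-fold. They ran from -0.14 for Csf3r to 0.88 for Camp, while S100a8 and Ngp were well above background on neither array. S100a9, Ltf, Mpo and Mmp8 were so with the agonists only, at least 1.35-fold, 1.78-fold, 1.25-fold and 1.11-fold higher there, and the median was 0.37 with these at their bounds. Their summed signals of 83883 and 77464 came mostly from Csf3r (78901 and 73526). Of 12 adipocyte markers, 7 were seen on both arrays, with a median of 0.24 (-0.07 with 1 further gene seen on each array alone at its bound) and summed signals of 9250 and 7036. Fabp4 stood at 3.82, Plin4 at 1.14 and Plin1 at 0.59, Cidea at -0.87, and Adipoq, the adiponectin gene, was well above background on neither array. Oviduct markers had a median of -0.15 over 5 genes and summed signals of 1102 and 808, from -0.55 for Ovgp1 to 2.47 for Tekt1 (0.54 at another probe), with Foxj1 at -0.31 and Pax8 seen with the agonists only. Erythrocyte markers had a median of -0.05 over 3 genes and summed signals of 783 and 682, with Hba-a1 at -0.15, Hba-a2 at -0.05, Slc4a1 at 0.25 and Hbb-bs on neither array. The part of these cells was not tested either.

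**Figure D5:**
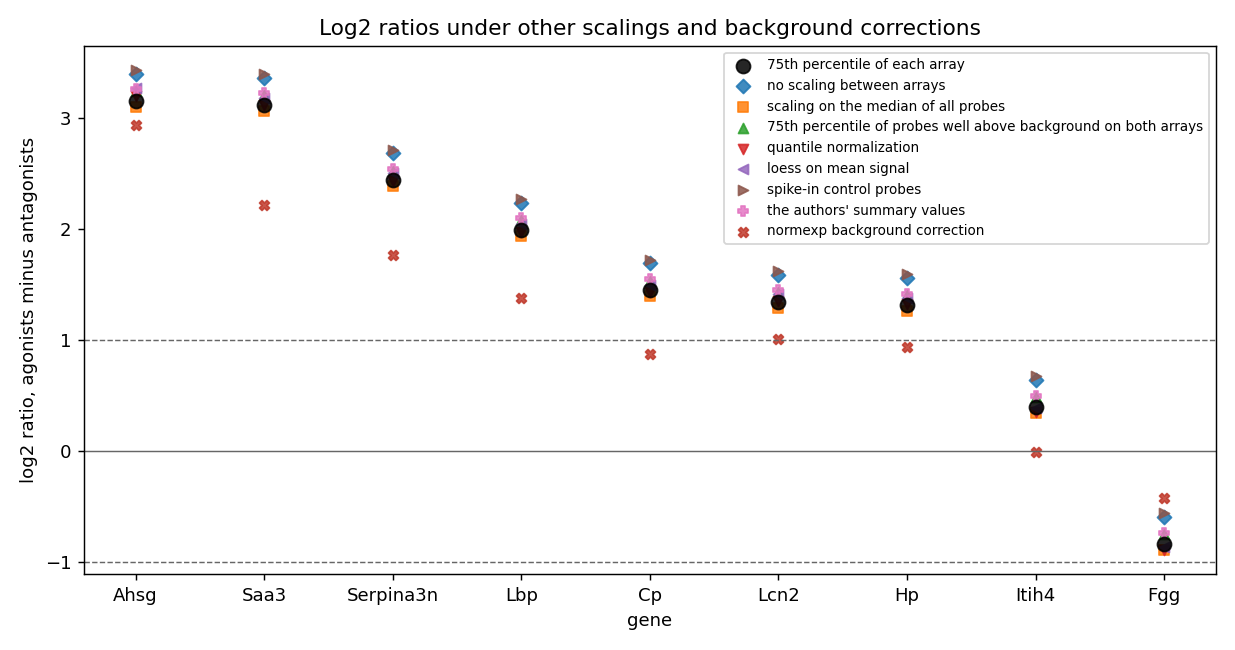
Log2 ratio, agonists minus antagonists, of the 9 genes well above background on both arrays under the main scaling (black circles) and under other scalings and background corrections of the same spots, with dashed lines at 2-fold. The crosses for normexp background correction lie below the other points for Ahsg, Saa3, Serpina3n, Lbp, Cp, Lcn2, Hp and Itih4, and at 0.88 for Cp and 0.94 for Hp they fall under the upper dashed line.

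The ratios of the members were read under other ways of making the values from the same spots. Of the 7 genes past 2-fold, all remained so under each other scaling that was run and with the authors' summary values, with Ahsg between 2.94 and 3.44 over all alternatives. Most of these scalings, and the summary values, shift every ratio by the same amount, at most 0.06 downward. The lowest of the 7 was Hp at 1.32, so such shifts could not bring any of them under 2-fold. Under normexp background correction, which fits the background as a distribution and adds an offset, 5 were past 2-fold and the log2 ratios were lower, 2.22 for Saa3 and 1.77 for Serpina3n. Their order changed there, with Cp (0.88) below Lcn2 (1.01) and Hp (0.94).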

How the data were processed

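Per the labels and the paper, RNA of cultured ovary pieces was hybridised to single-colour Agilent SurePrint G3 mouse arrays, 1 for each condition, on the same slide. The authors deposited the spot intensities written by Agilent Feature Extraction 10.10.1.1, on a linear scale, corrected for background and not scaled between arrays, together with its flags for saturated spots, outlier spots and spots well above background. A deposited table of summary intensities was found equal to the processed signal times 1.99 or 2.19 (largest relative deviation 4.97e-10).

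From these files, control spots and spots marked as outliers were left out, the 75th percentile of each array was subtracted from log2 of the processed signal (672 signal units with agonists, 569 with antagonists), and spots of a probe were averaged. This gave 55674 probes from 59305 spots, of which 65.4% and 61.6% were well above background and 0 saturated. RefSeq transcripts listed for GRCm38.p6 named 27230 probes and 20658 genes, for names and gene order only. A gene with several probes is represented by the brightest probe well above background on at least 1 array. Errors are the software's error of each spot, and the error of a log2 ratio combines both. The number of arrays limits the precision, and no test was made. Promoter windows are those RefSeq gives for GRCm38.p6.

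The members and all lists were chosen with earlier results of these data known. The genes named are the 10 members with every probe, each gene of the 3 pathway lists past 2-fold, also by a bound, or the 3 with the largest absolute log2 ratio where under 3 were, and of each of the 9 marker lists the highest, the lowest and the first 3 listed. Other genes were named after their values were seen. Some items that the rule covers are not reported here. Alternatives were other scalings, the summary values, normexp (offset 50), a 4-fold threshold, other filters on dim probes, and other treatments of outlier spots and of several spots or probes. The calculation was tested on simulated data. Python 3.11.15, numpy 2.4.6, pandas 2.3.3, matplotlib 3.10.9, R 4.3.3 and limma 3.58.1 were used.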

Additional observations from a re-analysis of the deposited data

How the results depend on the processing

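No paired analysis was possible because there is a lone array for agonists and a lone array for antagonists, and nothing was tested. With the arrays left unscaled, the members had a median log2 ratio of 1.69 and the other acute phase and plasma proteins had 1.29, and 1499 probes were past 2-fold in favour of the agonists and 98 in favour of the antagonists, against 890 and 233 with scaling on the 75th percentile. With scaling on spike-in probes these values were 1.73, 1.32, 1625 and 88. Under normexp they were 1.01, 0.65, 410 and 60. A 4-fold threshold left 3 members, 127 higher probes and 18 lower probes. Keeping all dim probes gave 3339 higher and 2333 lower probes and a median of 0.51 for the other acute phase and plasma proteins. Lower probes numbered 149 by the summary values of the authors and 450 where dim readings were set to the floor. Itih4 turned to -0.0066 under normexp and to -1.18 as the mean over its probes, which adds the dimmer probe. Over 110 values of single members, 86 moved by less than the spot error, 22 moved by more and kept their sign, and 2, both of Itih4, changed sign. Keeping outlier spots and taking the median over spots could not move any member, because each probe has a lone unflagged spot. The mean over probes could move Itih4 only. These unmoved values are among the 86, as are all 11 of Orm1, whose spot error was 1.53. The median of all probes moved up by 0.24 without scaling, by 0.28 with spike-in probes and by 0.10 with the summary values. Of the probes past 2-fold, 79.3% were higher with the agonists, and this share was 93.9% without scaling, 94.9% with spike-in probes and 73.5% with scaling on the median. The cause of these shifts was not tested. Among the members, Fgg on both arrays and Itih4 with the antagonists read close to the lowest signal well above background, and Orm1 read below it on both. Among the other genes named, F13a1, Serpina3c, Serpina3m, Itih2 and Lrrn4 also read close to it with the antagonists.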
